A study of Homo sapiens with 3 samples.

Results

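The nuclear genes for the proteins of the mitochondrial ribosome were compared between 3 PC3-Luc prostate cancer lines, 2 with a short hairpin against CTHRC1 (sh718 and sh720) and 1 with a control hairpin (shCtrl). The genes were all protein-coding rows of the deposited count table whose symbol is MRPL or MRPS followed by a digit. This took 77 of 21726 listed genes, 48 named MRPL and 29 named MRPS. Counts sufficed to test 73 of them among 9556 tested genes, a gene being tested when its mean over the 3 lines of the counts summed per line was 20 or more. In the sh718 line 23 of the 73 tested genes were lower than in shCtrl and 6 were higher. In the sh720 line 3 were lower and 0 were higher.

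The mitochondrial ribosome translates the few proteins encoded by mitochondrial DNA, all of them parts of the respiratory chain and ATP synthase. Its RNAs come from mitochondrial DNA, whereas its proteins are made in the cytosol from nuclear genes scattered over the chromosomes and are imported. Some of these proteins descend from bacterial ribosomal proteins and others are particular to mitochondria, and they join the large subunit, which forms peptide bonds, or the small subunit, which decodes the message.

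PC3 is a line grown from a bone metastasis of a prostate adenocarcinoma. All 3 lines here are PC-3-Luc, which carry luciferase from the vector pMSCV-luc. The study asked about CTHRC1, a secreted glycoprotein, in bone metastasis of prostate cancer. Cells spent 24 h in 6-well plates before RNA was taken with RNeasy columns and DNase I, and 75 bp single reads were made on a NovaSeq6000. The 3 groups are therefore sh718 and sh720, each a PC-3-Luc line with 1 hairpin against CTHRC1, and shCtrl, the PC-3-Luc line with the control hairpin, with 3 libraries for each. The sources used here do not say whether a line is a clone or a pool of transduced cells, so a difference between lines cannot be told apart from a difference between the cells each line was grown from.

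Library totals were 883663 to 1108960 counts, and transcripts of mitochondrial DNA held 12% to 16.4% of them. CTHRC1 had 1.81 ± 0.672 CPM in sh718, 16 ± 5.48 CPM in sh720 and 116 ± 16.4 CPM in shCtrl (mean ± SD, n = 3 libraries each). CPM here means TMM-scaled CPM, a gene's count as a share of the scaled library. The 6 epithelial and mesenchymal markers that PC3 cells are known for (KRT8, KRT18, KRT19, VIM, EPCAM and CD44) had 268 to 22409 counts over all libraries. In sh718 EPCAM (-1.39, edgeR adjusted p 2.41e-05) and CD44 (-0.47, 7.57e-04) were lower than in shCtrl and KRT19 was higher (0.39, 1.64e-05), and in sh720 KRT8 (0.46), VIM (0.31) and KRT18 (0.22) were higher. The endothelial marker PECAM1 had 49.6 ± 2.57 CPM in sh718, 20 ± 9.73 CPM in sh720 and 24.1 ± 2.36 CPM in shCtrl, and was higher in sh718 than in shCtrl (1.03, adjusted p 2.63e-04). The leukocyte genes PTPRC and CD14 had 6 and 4 counts over all libraries, and the fibroblast genes COL1A1 and PDGFRB 28 and 4. The part of these marker differences in the members' changes in sh718 was not tested.

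In sh718 against shCtrl the tested members moved mostly downward, with a small group going up. The 23 lower genes were 31.5% of the tested members, beside 10.8% of all tested genes called lower, and the 6 higher genes were 8.22%, beside 9.56% of all tested genes called higher. The median log2 change of the 73 was -0.15, beside 0.002 over all tested genes, and 50 of the 73 lay below 0. A gene was called here at an adjusted p under 0.05 in edgeR's quasi-likelihood test, fitted to all genes and adjusted by Benjamini-Hochberg. The changes were mostly modest, since 3 of the 23 lower genes and 0 of the 6 higher ones reached a 2-fold change. In 22 of the 23 lower genes every sh718 library lay below every shCtrl library, MRPL33 being the exception, and in the 6 higher genes every sh718 library lay above. The same count over all tested or all called genes was not made. This separation therefore describes the called members and adds no support to their calls. DESeq2 called 18 members lower and 2 higher, beside 5.86% and 4.68% of all tested genes. Without sh718 library 3, or without shCtrl library 1, 3 members remained called higher.

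Few members passed the test in the sh720 line. The 3 lower genes were 4.11% of the tested members, beside 3.42% of all tested genes, a share near the background, and 0 members were called higher, beside 3.43% of all tested genes. The median change was -0.05. DESeq2 called 1 member lower and 0 higher, beside 3.73% and 2.74% of the 4739 genes to which it gave an adjusted p. When libraries were scaled by their totals alone, 1 member was called lower and 1 higher in edgeR. Without sh720 library 2 or 3, or without shCtrl library 1 or 2, 1 member was called lower. Both comparisons use the same shCtrl libraries, so their values are set side by side below and no overlap between them is read as a result.

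**Figure D1:**
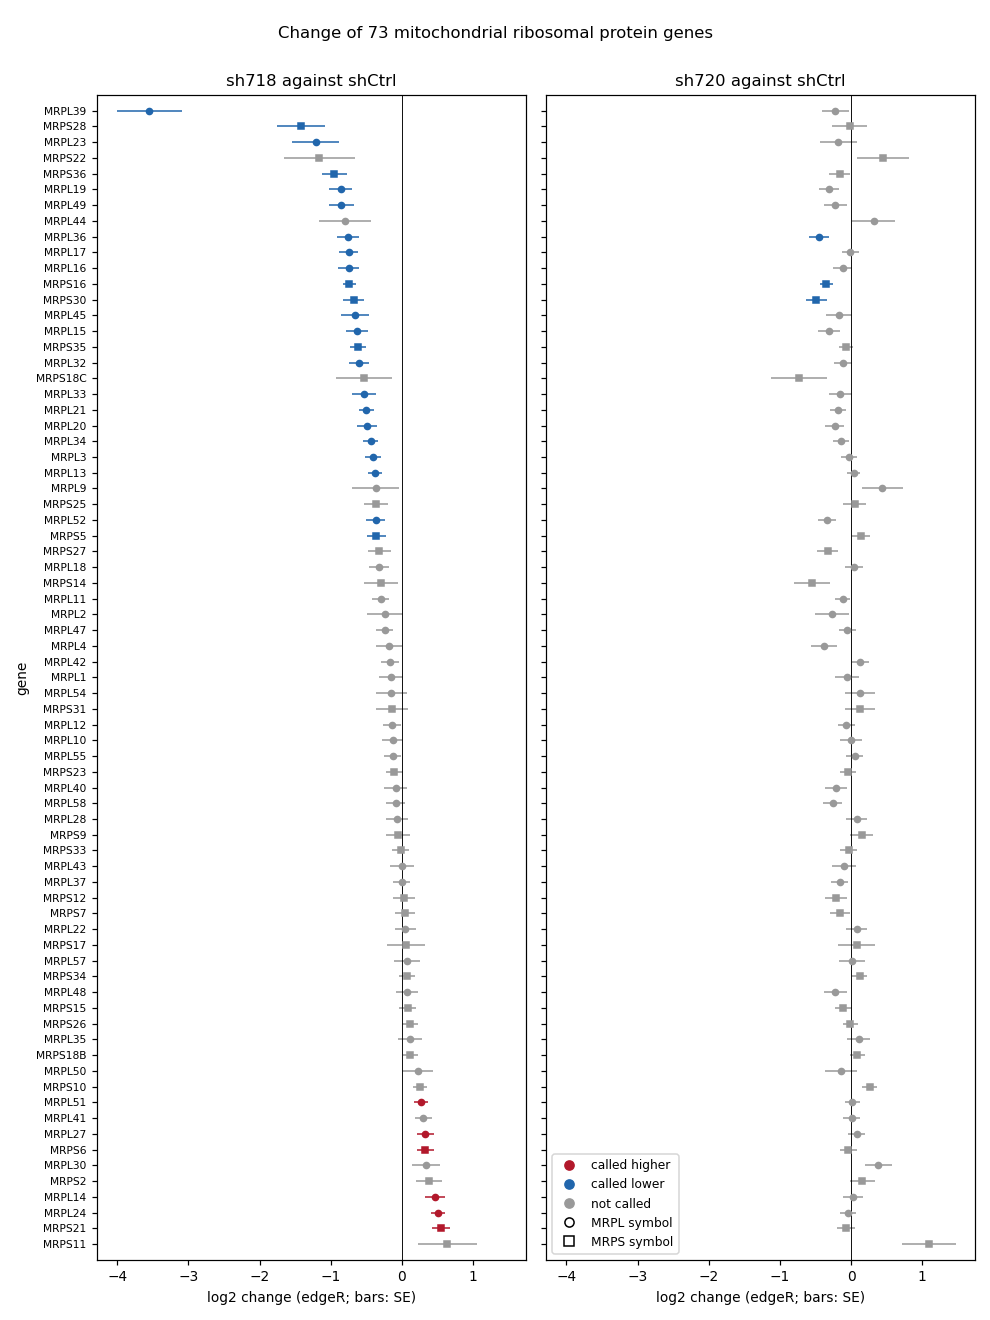
Log2 change with its standard error of the 73 tested mitochondrial ribosomal protein genes in sh718 against shCtrl (left) and sh720 against shCtrl (right), ordered by the change in sh718. Circles are MRPL genes and squares MRPS genes, blue marks the 23 and 3 genes called lower and red the 6 called higher, and MRPL39 stands apart at -3.55 on the left but at -0.22 on the right.

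The proteins of the large subunit made up most of the lower genes in sh718. By structure, with MRPS18A and MRPS30 counted as the large-subunit proteins they are, 18 of 47 tested large-subunit genes were lower and 4 higher in sh718, with a median of -0.24, against 4 lower and 2 higher of 25 tested small-subunit genes, with a median of -0.02. These lower shares were 38.3% and 16%, beside 10.8% of all tested genes. The higher shares were 8.51% and 8%, beside 9.56%, so the shares of these 25 small-subunit genes lie near the background. The counts leave out 5 mitoribosomal proteins under other symbols, described below. Of those 5, 2 were lower and 0 higher in sh718, and both lower ones, CHCHD1 and AURKAIP1, are small-subunit proteins. Among the 30 large-subunit proteins with a bacterial homologue 13 were lower and 3 higher, with a median of -0.31, and 24 of the 30 lay below 0. Of the 17 tested large-subunit proteins particular to mitochondria 5 were lower and 1 was higher, with a median of -0.09. Of the small-subunit genes, 3 of 15 with a bacterial homologue were lower and 2 higher, and 1 of 10 particular to mitochondria was lower (10%). The difference between the subunits was not tested. In sh720 the same classes had medians between -0.16 and 0.02.

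MRPL39 encodes a large-subunit protein particular to mitochondria and had the largest change of any member in sh718. Its gene (ENSG00000154719) lies at chr21:25585656-25607517 on the minus strand in GRCh38. It had 4.71, 5.04 and 2.12 CPM in the sh718 libraries, 48.3, 42.6 and 32.0 CPM in the sh720 libraries and 54.0, 42.9 and 46.3 CPM in the shCtrl libraries. All 3 sh718 libraries stood far below all others, while sh720 and shCtrl overlapped. The log2 change was -3.55 in sh718 (edgeR adjusted p 9.18e-14, SE 0.46) and -0.22 in sh720 (adjusted p 0.591, SE 0.19), and sh718 differed from sh720 by -3.33 (adjusted p 2.10e-12, SE 0.46). Its neighbours did not share this size of change, since the nearest tested genes ATP5PF, GABPA and APP lay at 0.05, -0.29 and -0.33 in sh718. In bulk RNA, fewer cells that hold the transcript cannot be told apart from less of it in each cell.

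Other large-subunit genes fell less steeply in sh718. MRPL23, whose bacterial relative sits at the exit of the peptide tunnel, had 9.43, 11.1 and 11.7 CPM in the sh718 libraries, 18.5, 32.2 and 16.5 CPM in the sh720 libraries and 24.8, 19.2 and 30.5 CPM in the shCtrl libraries. The sh718 libraries lay below the rest, and the log2 change was -1.21 in sh718 (edgeR adjusted p 0.0028, SE 0.33) and -0.18 in sh720. MRPL17, another protein with a bacterial homologue, had 83.7, 77.6 and 77.4 CPM in the sh718 libraries, 138, 137 and 124 CPM in the sh720 libraries and 136, 153 and 114 CPM in the shCtrl libraries. Its sh720 and shCtrl libraries overlapped and its sh718 libraries lay below both, with log2 changes of -0.75 in sh718 (edgeR adjusted p 9.75e-06, SE 0.13) and -0.01 in sh720. MRPL19, whose bacterial relative lies at the contact between the subunits, had 47.1, 45.3 and 56.2 CPM in the sh718 libraries, 82.2, 68.6 and 67.9 CPM in the sh720 libraries and 98.0, 88.0 and 85.1 CPM in the shCtrl libraries. Its groups did not overlap, and its change was -0.86 in sh718 (edgeR adjusted p 1.11e-05, SE 0.16) and -0.31 in sh720 (adjusted p 0.2).

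The remaining lower large-subunit genes in sh718 had log2 changes between -0.85 and -0.37. MRPL49 (-0.85) is particular to mitochondria and shares 282 exon bases on the opposite strand with FAU, a cytosolic ribosomal protein gene with 11129 counts in all against 503 for MRPL49. The sources used here do not give the strand setting of the counting, so reads of such overlaps cannot be told apart. MRPL16 (-0.75), whose bacterial relative lies close to the site of peptide bond formation, MRPL15 (-0.63) and MRPL32 (-0.60), which a mitochondrial protease must trim before assembly, have bacterial homologues. MRPL45 (-0.66) is the protein that ties the ribosome to the inner membrane. The others were MRPL33 (-0.53), MRPL21 (-0.50), MRPL20 (-0.49), MRPL34 (-0.44), MRPL3 (-0.41), MRPL13 (-0.38) and MRPL52 (-0.37). Some of these calls rested on single libraries: MRPL13 and MRPL3 lost theirs without sh718 library 2 (adjusted p 0.0504 and 0.0744), MRPL45 without sh718 library 2 or shCtrl library 3 (up to 0.0585), MRPL33 without sh718 library 2 or 3 or shCtrl library 3 (up to 0.181), and MRPL52 without sh718 library 2 or 3 or shCtrl library 1 or 2 (up to 0.136). The calls of MRPL3, MRPL13, MRPL33 and MRPL52 were also lost once trends with GC content and length were removed (adjusted p 0.0705, 0.111, 0.15 and 0.0999), and DESeq2 did not call MRPL20 (0.0694), MRPL33 (0.143), MRPL45 (0.101) or MRPL52 (0.176).

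Among the small-subunit genes the steepest fall in sh718 was that of MRPS28, the counterpart of a bacterial protein that binds messenger RNA. It had 9.43, 8.06 and 9.54 CPM in the sh718 libraries, 26.7, 21.8 and 23.3 CPM in the sh720 libraries and 30.4, 25.9 and 17.6 CPM in the shCtrl libraries. The sh718 libraries lay below all others, and the log2 change was -1.42 in sh718 (edgeR adjusted p 5.76e-04, SE 0.34) and -0.02 in sh720. MRPS35, a small-subunit protein particular to mitochondria, had 124, 130 and 153 CPM in the sh718 libraries, 196, 194 and 207 CPM in the sh720 libraries and 223, 202 and 204 CPM in the shCtrl libraries. It was lower in each sh718 library than in any other, with a log2 change of -0.62 in sh718 (edgeR adjusted p 6.58e-06, SE 0.11) and -0.07 in sh720. MRPS5 fell by 0.36 on the log2 scale in sh718, a call lost without any 1 of the sh718 libraries or without shCtrl library 2 or 3 (adjusted p up to 0.142), and not made by DESeq2 (0.195).

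MRPS36 carries a mitoribosomal symbol but is known as KGD4, a part of the alpha-ketoglutarate dehydrogenase complex, and is not a ribosomal subunit in current structures. It had 33.0, 36.3 and 48.8 CPM in the sh718 libraries, 67.8, 78.0 and 60.1 CPM in the sh720 libraries and 81.1, 65.4 and 81.4 CPM in the shCtrl libraries. The sh718 libraries were the lowest, and the log2 change was -0.95 in sh718 (edgeR adjusted p 1.44e-05, SE 0.18) and -0.16 in sh720. Counts over the MRPS symbols above include it, and counts by structure do not.

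The 3 members called lower in sh720 were also lower in sh718. MRPS16 (ENSG00000182180, chr10:73248843-73252693), a small-subunit protein with a bacterial homologue, had 204, 243 and 214 CPM in the sh718 libraries, 295, 278 and 290 CPM in the sh720 libraries and 374, 371 and 359 CPM in the shCtrl libraries. The groups did not overlap, and sh718 lay lowest. Its log2 change was -0.74 in sh718 (edgeR adjusted p 8.08e-10, SE 0.09) and -0.35 in sh720 (adjusted p 0.00311, SE 0.09), and the call in sh720 held without any 1 library (adjusted p up to 0.0294) and in DESeq2 (0.015).

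MRPL36 (ENSG00000171421, chr5:1798386-1801366), the counterpart of a very small bacterial large-subunit protein, had 48.3, 55.4 and 51.9 CPM in the sh718 libraries, 62.7, 65.5 and 65.9 CPM in the sh720 libraries and 90.1, 98.1 and 78.6 CPM in the shCtrl libraries. Again the groups did not overlap, with log2 changes of -0.76 in sh718 (edgeR adjusted p 7.16e-05, SE 0.15) and -0.45 in sh720 (adjusted p 0.0371, SE 0.14). MRPS30 (ENSG00000112996, chr5:44808925-44820428), a large-subunit protein despite its symbol, had 53.0, 59.4 and 47.7 CPM in the sh718 libraries, 64.7, 60.3 and 58.2 CPM in the sh720 libraries and 87.8, 97.0 and 74.0 CPM in the shCtrl libraries. Here the sh718 and sh720 libraries overlapped and both lay below shCtrl, with log2 changes of -0.68 (edgeR adjusted p 5.34e-04, SE 0.15) and -0.49 (adjusted p 0.0256, SE 0.15). The sh720 calls were less firm than the sh718 calls. That of MRPL36 was lost without any 1 of the sh720 libraries or shCtrl library 1 or 2 (adjusted p up to 0.181) and that of MRPS30 without sh720 library 2 or 3 or shCtrl library 1 or 2 (up to 0.167), and DESeq2 called neither (0.182 and 0.143). With GC and length trends removed, MRPL36 also lost its sh720 call (0.0599).

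**Figure D2:**
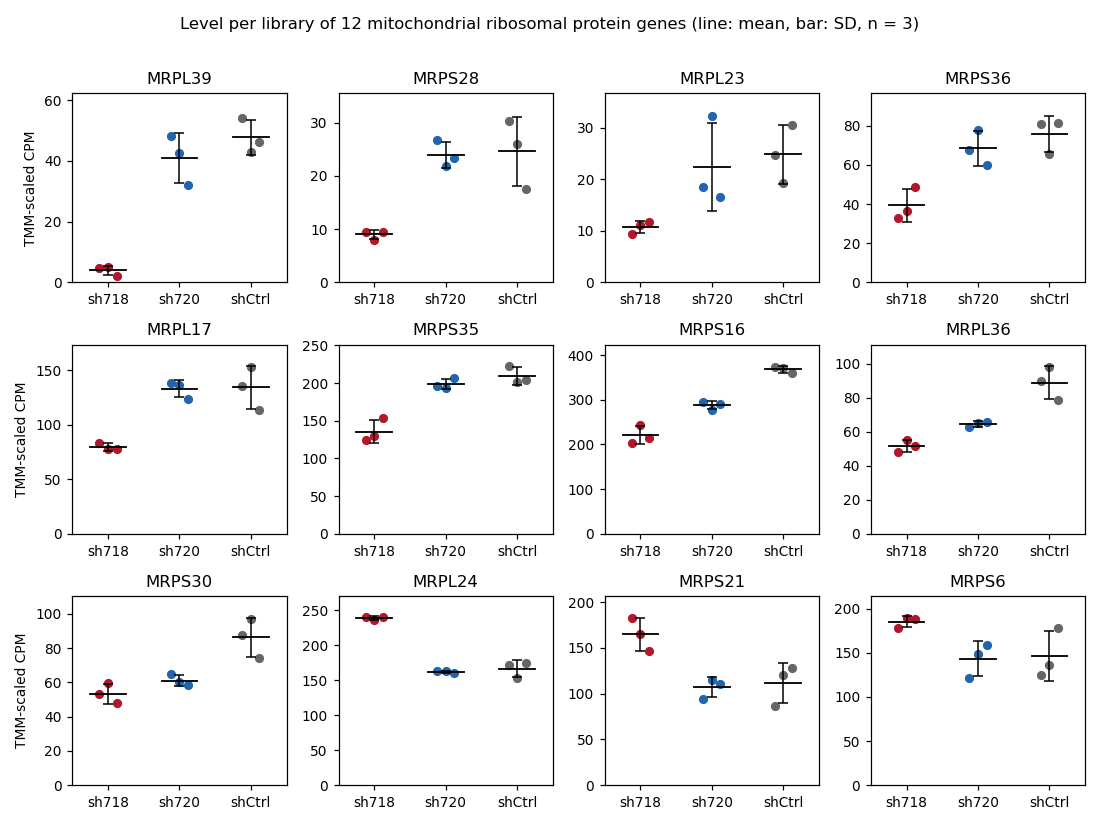
TMM-scaled CPM of 12 mitochondrial ribosomal protein genes in each library of sh718, sh720 and shCtrl, with the mean as a line and the SD as a bar (n = 3 libraries). MRPL39, MRPS28, MRPL23, MRPS36, MRPL17 and MRPS35 are low in sh718 alone, MRPS16, MRPL36 and MRPS30 are lower in both hairpin lines, and MRPL24, MRPS21 and MRPS6 are high in sh718.

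A smaller group was higher in sh718. MRPL24 (ENSG00000143314, chr1:156737303-156741590), whose bacterial relative is among the first proteins to bind the large-subunit RNA, had 240, 236 and 241 CPM in the sh718 libraries, 163, 163 and 160 CPM in the sh720 libraries and 172, 153 and 175 CPM in the shCtrl libraries. Its sh718 libraries lay above all others, with a log2 change of 0.51 (edgeR adjusted p 5.84e-05, SE 0.10) in sh718 and of -0.04 in sh720. MRPS21 (ENSG00000266472, chr1:150293720-150308979), a small-subunit protein with a bacterial homologue, had 183, 165 and 147 CPM in the sh718 libraries, 94.5, 115 and 111 CPM in the sh720 libraries and 86.7, 120 and 128 CPM in the shCtrl libraries. The sh718 libraries were again the highest, with log2 changes of 0.55 in sh718 (edgeR adjusted p 5.11e-04, SE 0.13) and -0.07 in sh720.

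The other 4 higher members in sh718 were MRPL14 (0.46), the protein to which the assembly factor MALSU1 binds, MRPL27 (0.33), whose bacterial relative reaches towards the site of peptide bond formation, MRPS6 (0.33) and MRPL51 (0.27). Their calls were less firm than those of MRPL24 and MRPS21, which held without any 1 library. That of MRPL14 was lost without shCtrl library 3 (adjusted p 0.105). Those of MRPL27 (up to 0.225) and MRPS6 (up to 0.253) were lost without 4 different libraries each, among them sh718 library 2, sh718 library 3 and shCtrl library 1, the fourth being shCtrl library 3 for MRPL27 and shCtrl library 2 for MRPS6. That of MRPL51 was lost without sh718 library 1 or 3, sh720 library 2 or any 1 of the shCtrl libraries (up to 0.158), and MRPL51 shares 486 exon bases with NCAPD2 on the opposite strand. MRPS6 shares 273 exon bases with SLC5A3 on the same strand. DESeq2 called none of these 4, with adjusted p between 0.0945 and 0.165.

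Set directly against sh720, the sh718 line had 20 members lower and 5 higher. These were 27.4% and 6.85% of the tested members, beside 13% and 12.3% of all tested genes, and the median difference was -0.12. DESeq2 called 10 lower and 2 higher, beside 6.92% and 6.61% of all tested genes, and scaling by library totals alone gave 24 lower and 2 higher. Of the 23 genes lower in sh718 than in shCtrl, 16 were also lower in sh718 than in sh720, and 5 of the 6 higher ones were also higher. Both comparisons use the same sh718 libraries, so part of this overlap is built in. It was not counted over all genes and is not read as a result.

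The direct comparison also called 4 genes that were called in neither line against shCtrl. MRPS22, a small-subunit protein particular to mitochondria, had 1.18, 4.03 and 7.42 CPM in the sh718 libraries and 15.4, 13.5 and 11.6 CPM in the sh720 libraries, with 11.3, 7.89 and 10.2 CPM in the shCtrl libraries. The sh718 libraries lay below both other lines, and the log2 difference of sh718 minus sh720 was -1.62 (edgeR adjusted p 0.00348, SE 0.48), while its change against shCtrl was -1.16 in sh718 (adjusted p 0.0729) and 0.45 in sh720. MRPL44, a large-subunit protein with a fold shared with RNA-cutting enzymes, had 8.25, 7.05 and 10.6 CPM in the sh718 libraries and 18.5, 20.8 and 17.5 CPM in the sh720 libraries, with 11.3, 20.3 and 13.9 CPM in the shCtrl libraries. Its sh718 libraries lay below the rest while sh720 and shCtrl overlapped, and the log2 difference of sh718 minus sh720 was -1.12 (edgeR adjusted p 0.0097, SE 0.36), lost without sh718 library 2 (0.0524). The others were MRPL9 (-0.81) and MRPL18 (-0.36), chosen for mention after their values were seen. Both lost the call without any 1 of several libraries, with adjusted p up to 0.154 for MRPL9 (sh718 library 1 or 3, sh720 library 1 or 3) and up to 0.316 for MRPL18 (sh718 library 1 or any 1 of the sh720 libraries).

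Summed over all 77 genes, the mitochondrial ribosomal protein transcripts took 6455, 6311 and 6532 CPM in the sh718 libraries, 7019, 6859 and 6769 CPM in the sh720 libraries and 7164, 7302 and 7139 CPM in the shCtrl libraries. On this scale the 3 lines did not overlap, with sh718 lowest and shCtrl highest. The means were 6433 ± 112 CPM in sh718, 6882 ± 127 CPM in sh720 and 7202 ± 87.5 CPM in shCtrl (SD, n = 3 libraries each), differences from shCtrl of -10.7% in sh718 and -4.44% in sh720. The MRPL genes summed to 3885 ± 77.1 CPM in sh718, 4237 ± 134 CPM in sh720 and 4462 ± 45.7 CPM in shCtrl. The MRPS genes summed to 2548 ± 59.3 CPM in sh718, 2645 ± 11.1 CPM in sh720 and 2740 ± 50.9 CPM in shCtrl. When libraries were scaled by their totals alone, the differences of the summed level from shCtrl were -12.4% in sh718 and -1.42% in sh720, and the sh720 libraries (6939 to 7039 CPM) overlapped the shCtrl libraries (6959 to 7175 CPM), with sh718 still below both (6136 to 6243 CPM).

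**Figure D3:**
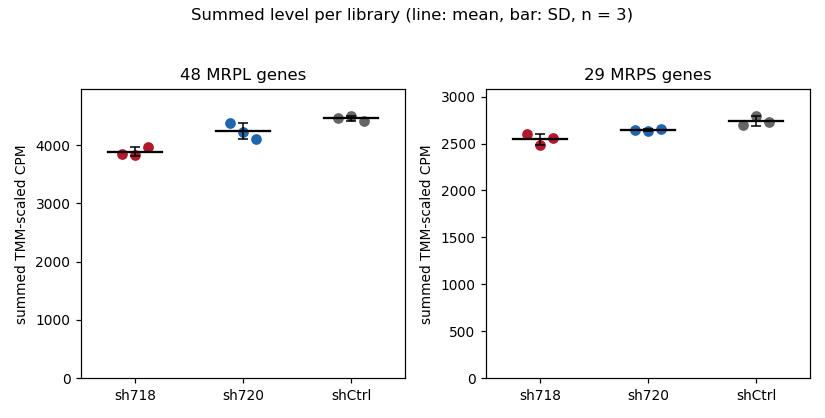
Summed TMM-scaled CPM of the 48 MRPL genes (left) and the 29 MRPS genes (right) in each library, with mean and SD (n = 3 libraries per line) and the axis starting at 0. The MRPL sums are 3827 to 3972 in sh718, 4111 to 4379 in sh720 and 4414 to 4505 in shCtrl, and the MRPS sums differ less between the lines.

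Most members did not pass the test in either line. In sh718 44 of the 73 tested genes were uncalled, with changes between -1.16 and 0.64, and in sh720 70 were, with changes between -0.73 and 1.09. MRPS11 marks the upper ends of both ranges, with 13.0, 12.1 and 9.54 CPM in the sh718 libraries, 19.5, 14.6 and 13.6 CPM in the sh720 libraries and 4.50, 10.1 and 7.40 CPM in the shCtrl libraries (edgeR adjusted p 0.276 and 0.0537). Its counts were low at this depth, and the SE of its changes was 0.41 and 0.38. Per kilobase of the longest coding transcript in GENCODE v29, the tested members ran over a wide range of mean level, from 3.18 CPM per kb for MRPS11 to 259 for MRPL13, with a median of 50.3. MRPS10, with MRPL13 and MRPS16 one of the 3 members with the highest CPM before any correction for length, lay at 0.25 in sh718 (adjusted p 0.0658) and 0.26 in sh720 (0.123). With GC and length trends removed it was called higher in sh718 (0.38, adjusted p 0.00321), as it was without sh718 library 2 (0.0139) or shCtrl library 3 (0.0293) and with upper-quartile scaling (0.0482). The 4 members below the count minimum were MRPS18A with 10 counts over the 9 libraries, MRPS24 with 7, MRPL38 with 5 and MRPL46 with 4, too few for any comparison between lines at this depth.

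The lower members in sh718 were also counted by chromosome, with no test of how they spread. On chromosome 11, 5 of 7 tested members were lower (MRPL16, MRPL17, MRPL21, MRPL23 and MRPL49), beside 28.7% of all tested genes of that chromosome. On chromosome 8 it was 3 of 3 (MRPL13, MRPL15 and MRPS28), beside 17.9%, and on chromosome 5 it was 3 of 5 (MRPL36, MRPS30 and MRPS36), beside 16.4%. Chromosome 1 holds the most tested members, 8, of which 1 was lower and 2 were higher, beside 12% of its genes called lower. Of the 5 tested members on chromosome 6, 0 were lower and 1 was higher, beside 5.27% of its genes called lower. Chromosomes 2 and 17 hold 7 tested members each, as chromosome 11 does. On chromosome 2, 3 were lower (MRPL19, MRPL33 and MRPS5), beside 8.55% of its genes, and on chromosome 17, 1 was lower (MRPL45) and 1 higher (MRPL27), beside 5.18% of its genes called lower.

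For each member, the median change of the other tested genes whose start lies within 5 Mb was set beside its own. In sh718 these neighbour medians ran between -0.56 and 0.2. MRPL36 and MRPS30 lay among neighbours with a median of -0.56, MRPS16 among neighbours at -0.50, MRPL17 at -0.32, MRPS35 at -0.30 and MRPL23 at -0.27. MRPL39 (0.02), MRPL19 (0.07), MRPL32 (0.11), MRPL45 (0.14) and MRPS36 (-0.01) were lower among neighbours whose median was close to no change or above it. For MRPS36 the median hides lower genes, since 6 of its 30 neighbours were called lower and 0 higher. Its nearest tested gene, CDK7, lay at -0.98 (edgeR adjusted p 7.01e-04). Of 16 members with a neighbour median of -0.2 or less 12 were called lower (75%), beside 28.3% of all tested genes in such places. Of the other 57 members 11 were called lower (19.3%), beside 7.22% of all other genes. Across the 73 members, the member's change and its neighbours' median correlated with a Pearson coefficient of 0.294 and a Spearman coefficient of 0.43 in sh718, given as a description with no test, since neighbours share libraries and members can share neighbours. The limit of -0.2 was set with results of these data known. In sh720, MRPS16 alone had neighbours at or below it (-0.49), while the neighbours of MRPL36 and MRPS30 lay at -0.10 and 0.04. The part that the surrounding regions have in the members' changes was not tested.

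**Figure D4:**
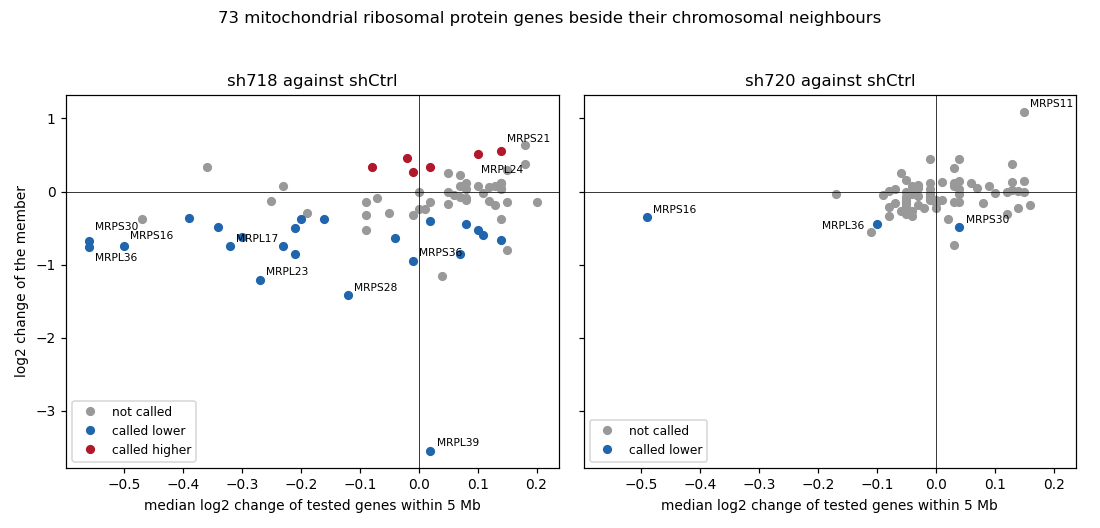
Log2 change of each of the 73 tested members (vertical axis) against the median log2 change of the other tested genes whose start lies within 5 Mb (horizontal axis), in sh718 against shCtrl (left) and sh720 against shCtrl (right). Blue marks genes called lower and red genes called higher. In sh718 many blue points lie left of 0, whereas MRPL39 lies at 0.02 on the horizontal axis, and in sh720 MRPS16 is the only member far to the left, at -0.49.

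Several members start close to a gene on the other strand. In 18 members another gene starts within 1 kb and runs away from it, counted between the outermost starts in GENCODE v29. MRPL36 starts 34 bases from NDUFS6, a gene of respiratory complex I, which was itself lower in sh718 (-0.30, edgeR adjusted p 0.0115) and lay at -0.14 in sh720 (0.405). The start of MRPL36 in RefSeq lies 1529 bases inside that outermost start, so the MRPL36 stretch printed next is not the one beside NDUFS6. MRPL47 starts 36 bases from NDUFB5, also of complex I, which was lower in sh718 (-0.46, adjusted p 3.39e-04) while MRPL47 lay at -0.24 (0.173). MRPL21 was lower in sh718 and its partner IGHMBP2, 7 bases away, lay at -0.05 (0.922).

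The promoters of the 3 members lower in both hairpin lines, of the member with the largest change and of the 2 most firmly higher members are shown next, because they let members with different behaviour be compared in sequence. Each is the 250 bases before the transcription start in RefSeq (GRCh38.p14), written 5′ to 3′ on the strand of the gene: MRPL39 at chr21:25607482-25607731 (minus), MRPS16 at chr10:73252645-73252894 (minus), MRPL36 at chr5:1799838-1800087 (minus), MRPS30 at chr5:44808697-44808946 (plus), MRPL24 at chr1:156741089-156741338 (minus) and MRPS21 at chr1:150293611-150293860 (plus). Capitals mark matches, on either strand, to the motifs of NRF1 (GCGCANGCG), the ETS family, which includes GABPA (CCGGAAG), or YY1 (AAGATGGC), regulators long linked to nuclear genes for mitochondrial proteins.
MRPL39: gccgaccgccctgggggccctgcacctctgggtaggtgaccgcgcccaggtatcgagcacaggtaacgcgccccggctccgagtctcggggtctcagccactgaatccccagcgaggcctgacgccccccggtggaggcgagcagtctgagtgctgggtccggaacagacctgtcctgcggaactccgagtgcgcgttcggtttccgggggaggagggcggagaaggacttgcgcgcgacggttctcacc
MRPS16: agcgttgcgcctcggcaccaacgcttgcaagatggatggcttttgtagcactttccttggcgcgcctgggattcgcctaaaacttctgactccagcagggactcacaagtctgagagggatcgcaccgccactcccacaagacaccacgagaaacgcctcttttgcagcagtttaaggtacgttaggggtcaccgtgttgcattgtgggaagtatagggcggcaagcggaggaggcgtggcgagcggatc
MRPL36: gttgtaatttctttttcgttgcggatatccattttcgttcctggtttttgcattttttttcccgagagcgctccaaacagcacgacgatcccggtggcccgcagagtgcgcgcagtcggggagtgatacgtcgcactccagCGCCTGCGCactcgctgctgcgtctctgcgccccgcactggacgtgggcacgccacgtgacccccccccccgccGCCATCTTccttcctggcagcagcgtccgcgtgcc
MRPS30: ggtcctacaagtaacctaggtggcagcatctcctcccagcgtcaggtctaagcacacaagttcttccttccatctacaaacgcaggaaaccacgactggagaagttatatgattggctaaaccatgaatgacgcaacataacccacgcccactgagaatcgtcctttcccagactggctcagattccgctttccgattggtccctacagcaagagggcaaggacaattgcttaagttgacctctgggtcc
MRPL24: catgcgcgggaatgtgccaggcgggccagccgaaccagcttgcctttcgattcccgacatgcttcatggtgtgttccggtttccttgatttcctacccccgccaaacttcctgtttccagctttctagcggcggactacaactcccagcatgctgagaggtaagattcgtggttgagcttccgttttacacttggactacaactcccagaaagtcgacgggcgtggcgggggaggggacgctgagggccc
MRPS21: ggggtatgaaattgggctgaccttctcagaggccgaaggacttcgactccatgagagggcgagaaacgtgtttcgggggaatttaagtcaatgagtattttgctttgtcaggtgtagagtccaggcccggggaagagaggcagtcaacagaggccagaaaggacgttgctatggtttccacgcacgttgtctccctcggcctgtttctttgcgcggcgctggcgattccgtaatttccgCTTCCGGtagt

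Of these stretches, that of MRPL36 holds an NRF1 match 109 to 101 bases before the start and a YY1 match 35 to 28 bases before it, and that of MRPS21 holds an ETS match 11 to 5 bases before it. The other 4 hold none of the 3 motifs in these 250 bases. Just past the printed stretches, counted from the first transcribed base, MRPS16 has an ETS match at bases 6 to 12 and MRPS30 a YY1 match at bases 14 to 21. MRPS21 has another ETS match there, at bases 8 to 14. Over windows that reach 250 bases before and 50 bases after the start, RefSeq entries were found for 68 of the 77 members, and 72.1% of these had at least 1 of the 3 motifs, beside 42.9% of the tested genes with an entry and 21.5% of all genes with one. A gene with several starts was counted as having a motif if any of its windows had it. The YY1 motif was in 30.9% of members, beside 7.27% of tested genes and 3.52% of all genes, the ETS motif in 42.6%, beside 24.5% and 12.2%, and the NRF1 motif in 20.6%, beside 19.1% and 9.02%. The NF-Y motif (CCAAT) was in 33.8%, beside 44.2% and 39.7%, and the E-box (CACGTG) in 13.2%, beside 12.8% and 8.77%. Among the 17 members lower in sh718 that have an entry, 7 had the YY1 motif, 6 the ETS motif and 5 the NRF1 motif. Among the 6 higher members 1, 3 and 1 had them. None of the 5 motifs contains another, both strands were searched, and a match is a description of the sequence only.

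The regulators that read these motifs were measured too. YY1 had 358, 354 and 366 CPM in the sh718 libraries, 373, 374 and 373 CPM in the sh720 libraries and 350, 361 and 371 CPM in the shCtrl libraries, and lay at -0.01 in sh718 and 0.05 in sh720, uncalled. GABPA (-0.29 and 0.10), GABPB1 (-0.11 and 0.06) and NRF1 (-0.30 and 0.40) were uncalled as well. Of 11 tested genes of mitochondrial transcription and its nuclear regulators, 3 were lower (27.3%, beside 10.8% of all tested genes) and 0 higher in sh718 and 0 were called in sh720. TFB2M, the factor that opens mitochondrial promoters for the polymerase, had 7.07, 8.06 and 7.42 CPM in the sh718 libraries, 31.8, 42.6 and 35.9 CPM in the sh720 libraries and 39.4, 40.6 and 48.1 CPM in the shCtrl libraries. The sh718 libraries were the lowest by far, with a log2 change of -2.49 (edgeR adjusted p 1.56e-10, SE 0.34) in sh718 and -0.23 in sh720. TFAM, which packs mitochondrial DNA, fell by 0.45 and MYC by 0.59 on the log2 scale in sh718 (adjusted p 0.00102 and 3.80e-05), with 0.07 for TFAM and -0.26 for MYC in sh720.

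Of 5 mitoribosomal proteins that carry other symbols, 2 were lower (40%, beside 10.8% of all tested genes) and 0 higher in sh718, and 1 was lower in sh720. CHCHD1, a small-subunit protein, had 392, 423 and 371 CPM in the sh718 libraries, 366, 360 and 334 CPM in the sh720 libraries and 527, 550 and 547 CPM in the shCtrl libraries. Both hairpin lines lay below shCtrl, with log2 changes of -0.45 in sh718 (edgeR adjusted p 5.04e-06, SE 0.08) and -0.62 in sh720 (adjusted p 6.19e-09, SE 0.08). CHCHD1 lies on chromosome 10, as MRPS16 does. On that chromosome 18.8% of tested genes were called lower in sh718 and 11.4% in sh720. The neighbours of CHCHD1 were not set beside it. AURKAIP1, also of the small subunit, fell by 0.44 in sh718 (adjusted p 2.71e-05) and lay at 0.00 in sh720. DAP3, GADD45GIP1 and PTCD3 were uncalled in both lines.

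Of 24 tested factors that assemble the ribosome or modify its RNA, 5 were lower and 1 higher in sh718 (20.8% and 4.17%, beside 10.8% and 9.56% of all tested genes), and 1 was lower and 1 higher in sh720 (4.17% each, beside 3.42% and 3.43%, near the background). MTERF3, which in mice is needed for large-subunit assembly, had 8.25, 11.1 and 12.7 CPM in the sh718 libraries, 36.0, 43.7 and 37.8 CPM in the sh720 libraries and 42.8, 51.9 and 50.9 CPM in the shCtrl libraries. It was far lower in the sh718 libraries than in any other, with log2 changes of -2.16 in sh718 (edgeR adjusted p 3.27e-10, SE 0.29) and -0.31 in sh720. C1QBP, a matrix protein needed for mitochondrial translation, was lower in both lines, at -0.92 in sh718 (adjusted p 1.65e-09) and -0.39 in sh720 (0.012). The assembly factor gene MPV17L2 (-0.89), the pseudouridine synthase gene TRUB2 (-0.52) and the RNA helicase gene DHX30 (-0.41) were the others lower in sh718, and YBEY (0.73), an RNA nuclease, was higher. RPUSD3, another pseudouridine synthase, was higher in sh720 (0.42, adjusted p 0.0316) and lay at -0.32 in sh718. In sh718 against sh720, FASTKD2, which binds the RNA of the large subunit, was the 1 factor of this list called higher (0.85, adjusted p 0.0169). MALSU1, the partner of MRPL14, lay at 0.28 in sh718 and 0.17 in sh720, uncalled.

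Of 13 tested translation factors and activators 3 were lower (23.1%, beside 10.8% of all tested genes) and 0 higher in sh718, and 0 were called in sh720. The elongation factor gene GFM1 had 17.7, 33.3 and 29.7 CPM in the sh718 libraries, 44.2, 40.5 and 42.7 CPM in the sh720 libraries and 48.4, 41.7 and 61.1 CPM in the shCtrl libraries, a log2 change of -0.90 in sh718 (edgeR adjusted p 7.24e-04, SE 0.21) and -0.26 in sh720. Its relative GFM2, which splits used ribosomes into subunits, lay at 4.71, 1.01 and 5.30 CPM in the sh718 libraries, 10.3, 9.36 and 5.82 CPM in the sh720 libraries and 10.1, 9.02 and 14.8 CPM in the shCtrl libraries, a change of -1.65 in sh718 (adjusted p 0.0083, SE 0.53). Both were lower in sh718 with no overlap with shCtrl, though GFM2 rests on few counts. LRPPRC, which stabilises mitochondrial messengers, fell by 0.41 in sh718 (adjusted p 0.0177), and the elongation factor gene TUFM lay at 0.19 in sh718 and 0.06 in sh720, uncalled.

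**Figure D5:**
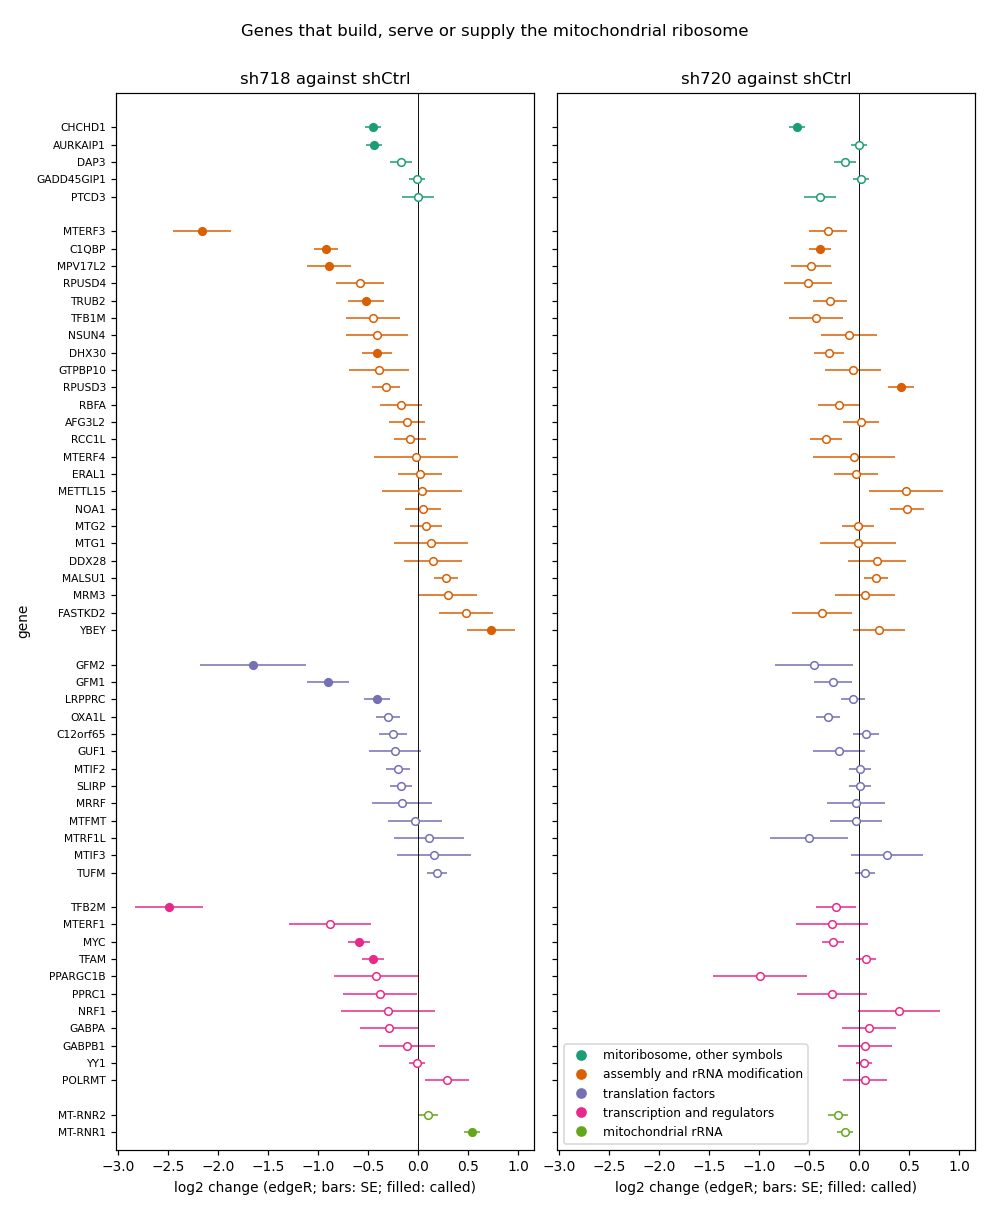
Log2 change with its standard error of tested genes that build, serve or supply the mitochondrial ribosome, in sh718 against shCtrl (left) and sh720 against shCtrl (right); filled points were called. TFB2M (-2.49), MTERF3 (-2.16) and GFM2 (-1.65) stand at the lower end in sh718, and CHCHD1 and C1QBP are lower in both lines.

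Of the ribosomal RNAs that these proteins bind, 1 was higher in sh718 and the other was uncalled. MT-RNR1, the RNA of the small subunit, had 7397, 5575 and 9198 CPM in the sh718 libraries, 4318, 5414 and 4085 CPM in the sh720 libraries and 5166, 4528 and 5507 CPM in the shCtrl libraries. It was highest in sh718, with a log2 change of 0.54 (edgeR adjusted p 4.36e-07, SE 0.08), and lay at -0.14 in sh720 (adjusted p 0.384). Its sh718 libraries varied widely, between 5575 and 9198 CPM, and the lowest lay just above the highest shCtrl library (5507 CPM). MT-RNR2, the RNA of the large subunit, also varied widely among libraries of the same line, between 47691 and 76263 CPM in sh718 and between 49022 and 75183 CPM in shCtrl. It lay at 0.10 in sh718 and -0.21 in sh720, uncalled. The sources used here do not say how ribosomal RNA was removed or messenger RNA selected. Of the 13 messengers of mitochondrial DNA, which the mitochondrial ribosome translates, 8 were lower and 1 higher in sh718 (61.5% and 7.69%, beside 10.8% and 9.56% of all tested genes). In sh720 6 were lower (46.2%, beside 3.42%) and 0 higher (beside 3.43%), and the median was -0.16 in both. These messengers have high counts, so small changes are called too, such as that of MT-ND2 in sh718 (-0.15, edgeR adjusted p 0.0357). Changes were larger for MT-ND1 (-0.83 in sh718 and -0.64 in sh720) and MT-ND3 (-0.59 and -0.36). MT-ND4 lay at -0.58 in sh718 and, uncalled, at -0.14 in sh720. The 1 messenger higher in sh718 was MT-ND5 (0.28).

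The cytosolic ribosomal protein genes, which are the closest counterpart in kind, moved differently in count. They were the protein-coding genes named RPL or RPS with a digit, RPLP with a digit, or RPSA, less 10 S6 kinase genes and RPS19BP1, which the symbols also take and which were left out after their values were seen. Of 81 tested, 21 were higher and 20 lower in sh718 (25.9% and 24.7%, beside 9.56% and 10.8% of all tested genes), with a median of 0.04, and 3 were higher and 22 lower in sh720 (3.7% and 27.2%, beside 3.43% and 3.42%), with a median of -0.12. In sh718 against sh720, 47 were higher and 16 lower (58% and 19.8%, beside 12.3% and 13% of all tested genes), with a median of 0.22. Of the 73 mitochondrial members 5 were higher and 20 lower (6.85% and 27.4%), with a median of -0.12. The difference between the sets was not tested.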

How the data were processed

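The authors deposited raw counts per Ensembl gene for 9 libraries, 3 numbered columns for each of the 3 lines, and each column was taken as 1 library. Reads were trimmed with Trim Galore and the build was GRCh38, per the submitters' processing notes. The aligner, counter, strand setting and annotation are not given in the sources used. The deposited counts come to 883663 to 1108960 per library. No source used here says that a line's libraries came from separate cultures. The p-values then measure the spread among libraries only, and it may be technical.

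The counts were analysed with edgeR 4.0.16 in R 4.3.3 (TMM, glmQLFit, glmQLFTest), with 1 model for the 9 libraries, without a library-number block, with Benjamini-Hochberg adjustment over 9556 genes. The steps were tested on simulated data. SEs come from the fitted weights and the gene's quasi-dispersion. The common coefficient of variation was 5.89%. Alternatives were DESeq2 1.42.0, other scalings and filters, 6 libraries at a time, chromosome MT left out, GC and length offsets, a library-number block, and leaving out each library. Positions, lengths and GC came from GENCODE v29, which held all 77 members. Motif shares are over RefSeq promoters.

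The members and lists were chosen with earlier results of these data known. Named were CTHRC1, members called in both lines, at most 8 called per direction and comparison, ranked by the end of the 95% interval closest to 0, the 3 with the highest CPM, and those under the count minimum. From each related list, at most 3 called genes per direction and comparison were named, or else the 2 with the highest counts. Genes named beyond these (other called genes, MRPS11, MALSU1, TUFM, divergent partners, the nearest neighbours and the regulators of the motifs) were chosen after their values were seen. A further gene of the marker check is not reported here.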

Additional observations from a re-analysis of the deposited data

Results flagged for a closer look

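The edgeR test of sh718 against sh720 called 20 members lower and 5 higher. Called outside the naming rule above were MRPL9 (-0.81), MRPL16 (-0.63), MRPS5 (-0.50), MRPL32 (-0.49), MRPL3 (-0.38), MRPL18 (-0.36), MRPL21 (-0.32) and MRPL34 (-0.30). Of these, the calls of MRPL16, MRPS5 and MRPL32 held without any 1 library, though DESeq2 did not call MRPL32 (adjusted p 0.0514). Among the 21 tested members that the naming rule took, 17 were called, and their values follow. The log2 difference of the changes, sh718 minus sh720, was -3.33 for MRPL39, -1.62 for MRPS22, -1.40 for MRPS28, -1.12 for MRPL44 and -1.04 for MRPL23. It was -0.79 for MRPS36, -0.74 for MRPL17, -0.62 for MRPL49, -0.56 for MRPS35, -0.55 for MRPL19, -0.42 for MRPL13 and -0.38 for MRPS16. It was 0.62 for MRPS21, 0.56 for MRPL24, 0.42 for MRPL14, 0.37 for MRPS6 and 0.25 for MRPL51. With 3 libraries per line, single libraries were not examined as outliers. Some calls of these 17 members rested on single libraries. MRPL23 lost its call without sh720 library 2 (adjusted p 0.172), MRPL19 (0.0544) and MRPS6 (0.137) without sh720 library 1, MRPL44 without sh718 library 2 (0.0524), and MRPL14 (up to 0.1) and MRPL49 (up to 0.0684) without sh718 library 2 or sh720 library 2. MRPL51 kept it without sh718 library 2 or sh720 library 2 and lost it without any 1 of the others (up to 0.224). The other 10 of the 17 held without any 1 library. DESeq2 did not call the same 7, with adjusted p of 0.1 for MRPL14, 0.0591 for MRPL19, 0.0739 for MRPL23, 0.0818 for MRPL44, 0.0597 for MRPL49, 0.163 for MRPL51 and 0.0766 for MRPS6. Scaling by library totals alone lost MRPL14 (0.0505), MRPL51 (0.182) and MRPS6 (0.057), and MRPL51 was also lost without the count filter (0.0987) and with only the 6 libraries compared (0.0557).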

How the results depend on the processing

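The 23 members lower in sh718 came to 17 to 24 over all alternatives. Higher members in sh718 came to 2 with DESeq2, 3 with library totals only, 3 without the count filter, 7 with GC and length offsets, 8 with upper-quartile scaling and 3 to 6 when single libraries were left out. In sh720, lower members came to 1 with DESeq2, 1 with library totals, 2 with GC and length offsets or without the count filter and 1 to 3 with a library left out, and higher members to 1 with library totals, 1 with only the 6 libraries compared and 0 to 1 with a library left out. In sh718 against sh720, DESeq2 gave 2 higher and 10 lower, and library totals 2 higher. By library totals the summed log2 level moved to -0.199 (MRPL) and -0.128 (MRPS) for sh718 over sh720, to -0.006 (MRPS) for sh720 over shCtrl, and over all members to -0.021 for sh720 over shCtrl and -0.171 for sh718 over sh720. The cause was not tested. Of 1255 alternative values for named members, 1173 kept their side of the threshold, 73 lost the call and 9 gained one. A sign changed in 32 of them, each uncalled in both fits and with a main log2 value of at most 0.18. With GC and length offsets, 19 of the 23 stayed lower in sh718 and 6 of 6 stayed higher. Libraries of the same number did not deviate together (r -0.013 to 0.022), so the numbers do not pair them, and a replicate block gave 24 lower and 7 higher in sh718 and 3 lower in sh720. The depth limits members of a few CPM, such as MRPS22, MRPS11 and GFM2, whose SEs against shCtrl were 0.36 to 0.53.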
